A study of Mus musculus with 6 samples.

Results

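Whole uteri of female mice on postnatal day 21 were profiled by poly(A) RNA sequencing, and 9 genes of glucocorticoid activation and response are described here out of the 20637 genes listed. The genes are Hsd11b1, Hsd11b2, Fkbp5, Tsc22d3, Zbtb16, Klf9, Sgk1, Mt1 and Mt2. They were chosen by name with their values in the comparison of the 2 genotypes already known, so these values are given as a description and no test is reported for them. All 9 were listed, and all 9 passed the filter on low values, which asked for 1 FPKM or more in 3 or more of the 6 libraries and kept 12640 genes. The groups were 3 libraries from Nat10 f/f uteri, which carry the floxed allele and are the controls, and 3 from Nat10 d/d uteri, in which the gene was deleted, all at the same age. Nat10 encodes an acetyltransferase of RNA. The Cre driver, the strain and the cells in which the deletion occurred are not given in the labels, nor is any time of day or handling before death. Nothing in the labels says that the libraries came from separate litters, and replicate numbers are not said to pair animals.

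Glucocorticoids are steroid hormones of the adrenal cortex whose action in a tissue depends on local enzymes as well as on the blood level. Hsd11b1 encodes the reductase that turns the inactive 11-keto steroid into active corticosterone, and Hsd11b2 encodes the dehydrogenase that inactivates it again. The active hormone binds the glucocorticoid receptor, which is held by chaperones in the cytoplasm and moves to the nucleus, where it binds paired hexamers in DNA. The receptors for progesterone and mineralocorticoid recognise the same element, so several of the genes below also respond to those hormones. In the uterus, progesterone is a main regulator of stroma and epithelium.

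Values are FPKM, that is, read abundance per length of gene and per depth of library, so levels can be set side by side between genes. The number of genes above 0 ranged from 15431 to 15680 per library, and depth estimated from the lowest values was 0.805 to 1.02 relative to f/f replicate 1. Nat10 itself was listed at 13.2, 16.4 and 9.95 FPKM in f/f and at 5.57, 5.23 and 5.53 in d/d libraries. The tissue markers Hoxa10 (116 to 151 FPKM), Hoxa11 (65.8 to 86.7) and Esr1 (83.9 to 134) were present in all 6 libraries. Over the 12640 genes tested, limma called 0 (0%) at an adjusted p of 0.05, with a smallest adjusted p of 0.669, and 630 (4.98%) had an unadjusted p under 0.05. The groups did not overlap for 10.7% of these genes.

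In f/f uteri the order of the mean levels ran from Mt1 and Mt2 through Tsc22d3, Klf9, Sgk1 and Hsd11b2 to Hsd11b1, Fkbp5 and Zbtb16. Mt1 and Mt2 had overlapping ranges, and so did Hsd11b1 with Fkbp5 and Fkbp5 with Zbtb16, while the other neighbours in this order did not overlap. Mt1 averaged 219.8 ± 27.6 FPKM (SD, n = 3) and stood above 98.0% of the genes tested, whereas Zbtb16 averaged 2.07 ± 0.612 FPKM (SD, n = 3) and stood above 7.78%. In d/d uteri the order of the means was the same. There the ranges of all neighbours overlapped apart from Klf9 with Sgk1 and Hsd11b2 with Hsd11b1.

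The activating enzyme was higher in 2 of the 3 d/d libraries and the inactivating enzyme was somewhat lower. Hsd11b1 (ENSMUSG00000016194; chr1:193221634-193264075, minus strand, mm10) had values of 3.50, 3.39 and 3.60 FPKM in f/f replicates 1, 2 and 3 and of 8.45, 3.36 and 9.77 in d/d replicates 1, 2 and 3. The 3 controls lay close together, d/d replicates 1 and 3 were 2.42 and 2.80 times the control mean, and d/d replicate 2 lay just under the lowest control. The mean was thus 3.50 ± 0.107 in f/f and 7.20 ± 3.38 FPKM in d/d uteri (SD, n = 3). On the log2(FPKM + 1) scale the difference was 0.76 (SE 0.32), and it was 1.17 without d/d replicate 2 and 0.51 without d/d replicate 3. Lamb3 on the opposite strand spans part of the same region, but none of its exon bases is shared with an exon of Hsd11b1 (0 of 4251). Same-strand genes overlap Hsd11b1 (Gm38118), Fkbp5 (AC154912.5 and AC154912.3) and Klf9 (Mir1192), and exon bases shared with these were not examined.

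Hsd11b2 (ENSMUSG00000031891; chr8:105518755-105523988, plus strand) was listed at 16.1, 17.2 and 14.2 FPKM in f/f and at 11.7, 12.4 and 14.6 in d/d libraries. The highest d/d library lay within the control range and the other 2 lay below it. The difference was -0.28 on the log2 scale (SE 0.13), from 15.8 ± 1.56 to 12.9 ± 1.49 FPKM (SD, n = 3). A ratio of the 2 enzymes within a library does not depend on how libraries are scaled. Hsd11b1 over Hsd11b2 was 0.218, 0.196 and 0.254 in f/f and 0.723, 0.270 and 0.671 in d/d libraries. d/d replicates 1 and 3 were well above the controls, and d/d replicate 2 lay just above the highest of them.

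The NADPH that drives the reductase comes from hexose-6-phosphate dehydrogenase, the product of H6pd. H6pd was listed at 23.7, 22.8 and 24.6 FPKM in f/f and at 23.0, 17.4 and 30.0 in d/d uteri, with d/d replicates 2 and 3 on either side of the controls. Of the 12 genes listed for supply and removal of the ligand, 6 passed the low-value filter, and limma called 0 of them (smallest adjusted p 0.922). Abcb1b, a steroid-exporting pump, was the only one of the 6 without overlap (16.7%, against 10.7% of all genes tested). It had values of 2.22, 1.93 and 1.88 FPKM in f/f and 3.40, 2.60 and 2.48 in d/d libraries (log2 change 0.34, SE 0.16, limma adjusted p 0.922). Cyp11b1 and Cyp11b2, which complete adrenal steroid synthesis, were at 0.214 FPKM or less in every library, and Serpina6, which encodes the plasma carrier of corticosterone, was listed at 0 in all 6.

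**Figure D1:**
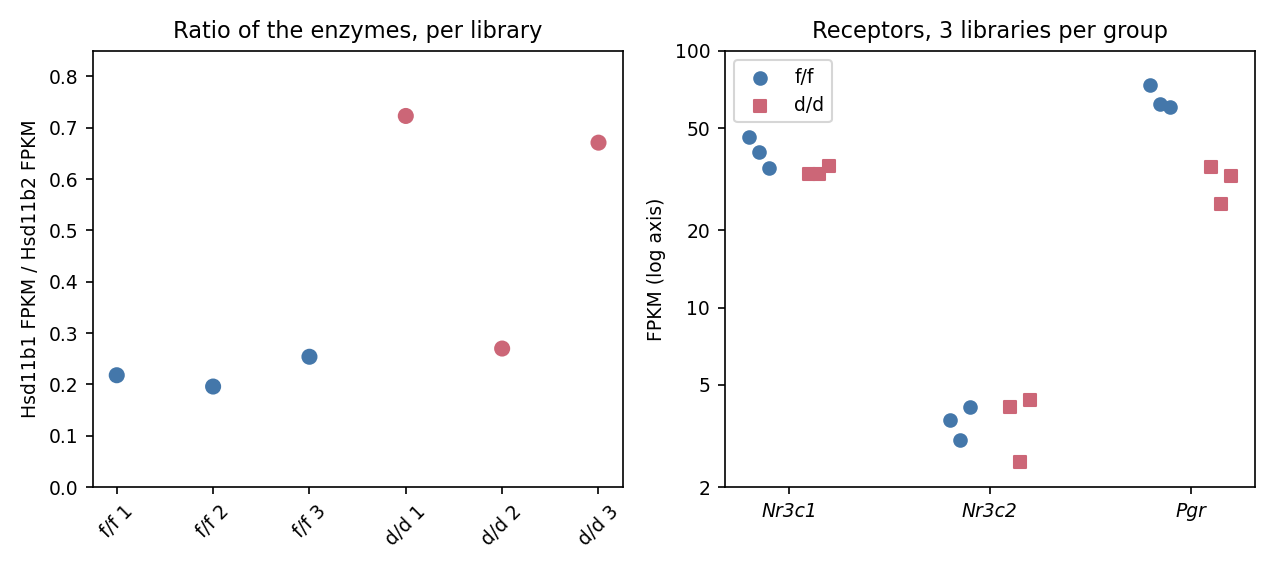
Left, the FPKM of Hsd11b1 divided by that of Hsd11b2 in each of the 3 f/f (blue) and 3 d/d (red) libraries; right, FPKM on a log axis of 3 receptors that share a DNA element, with 1 point per library. The ratio lies between 0.196 and 0.254 in controls and reaches 0.723 and 0.671 in d/d replicates 1 and 3, and the d/d values of Pgr are all below the f/f values.

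The receptors were described next. Nr3c1, the glucocorticoid receptor gene, had values of 46.1, 40.3 and 35.0 FPKM in f/f and 33.1, 33.1 and 35.7 in d/d libraries. Its d/d values lay at or below the lower end of the controls, with overlap in d/d replicate 3 (log2 change -0.24, SE 0.13, limma adjusted p 0.922), and without f/f replicate 1 the change was -0.14. Nr3c2, which encodes the mineralocorticoid receptor, was lower than Nr3c1 in every library, at 3.60 ± 0.516 FPKM in f/f and 3.66 ± 1.01 in d/d uteri (SD, n = 3), a log2 change of 0.00 (SE 0.20). The progesterone receptor gene Pgr had values of 73.8, 62.2 and 60.3 FPKM in f/f and 35.3, 25.4 and 32.6 in d/d libraries. Its groups did not overlap, and its log2 change of -1.06 (SE 0.15) had a limma adjusted p of 0.669. Of the alternatives run, only array quality weights called it. That setting called 316 genes and weighted d/d replicates 1, 2 and 3 at 3.74, 0.224 and 0.451. In RNA from whole tissue, fewer cells of a type and less RNA per cell cannot be told apart.

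Among the 16 chaperone and coregulator genes of the receptor, limma called 0 (smallest adjusted p 0.922). Their median log2 change was -0.09 beside 0.03 for all genes tested, with 5 positive and 11 negative differences. That median was -0.00 without d/d replicate 1 and -0.22 with array quality weights. The corepressor gene Ncor1 was the only one of the 16 without overlap (6.25%, against 10.7% of all genes tested). It was at 38.7, 36.5 and 36.9 FPKM in f/f and 32.5, 30.9 and 35.9 in d/d libraries. The coactivator gene Ncoa1 (-0.21, SE 0.14) and the chaperone gene Hsp90ab1 (-0.15, SE 0.15) had negative log2 changes with overlapping groups.

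Fkbp5 (ENSMUSG00000024222; chr17:28399094-28517527, minus strand) encodes a co-chaperone that lowers the affinity of the receptor for its ligand and is itself induced by the receptor. It had values of 4.40, 2.25 and 1.58 FPKM in f/f and 3.32, 6.12 and 9.88 in d/d libraries. d/d replicates 2 and 3 were above every control, while d/d replicate 1 lay between the controls, below f/f replicate 1. The mean went from 2.74 ± 1.47 to 6.44 ± 3.29 FPKM (SD, n = 3), a log2 change of 0.96 (SE 0.38). Leaving out f/f replicate 1 gave 1.26, and leaving out d/d replicate 3 gave 0.64. With array quality weights, which gave d/d replicates 2 and 3 weights of 0.224 and 0.451 against 3.74 for d/d replicate 1, it was 0.35. Fkbp5 was thus high in d/d replicate 2, the library in which Hsd11b1 stayed at the control level.

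The 3 transcription regulators varied widely among the d/d libraries. Zbtb16 (ENSMUSG00000066687; chr9:48654297-48836222, minus strand) encodes a zinc finger repressor induced by glucocorticoid and progesterone. It had values of 2.72, 1.51 and 1.99 FPKM in f/f and 3.41, 1.16 and 10.5 in d/d libraries. d/d replicate 3 was 5.09 times the control mean, d/d replicate 1 was above and d/d replicate 2 below all controls. The log2 change of 0.66 (SE 0.54) became 0.03 without d/d replicate 3 and 1.24 without d/d replicate 2, so its size depends on both of these libraries.

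Tsc22d3 (ENSMUSG00000031431; chrX:140539528-140600659, minus strand), also called GILZ, encodes a leucine zipper protein that mediates anti-inflammatory effects of the hormone. Its values were 115, 88.6 and 100.4 FPKM in f/f and 118, 63.1 and 167 in d/d libraries. Again d/d replicate 3 was the highest and d/d replicate 2 the lowest of the 6, and d/d replicate 1 was just above the highest control. The mean difference was 0.09 on the log2 scale (SE 0.32), and it turned to -0.22 without d/d replicate 3 and was 0.47 without d/d replicate 2. Klf9 (ENSMUSG00000033863; chr19:23141226-23168134, plus strand) encodes a Krüppel-like factor that is a partner of the progesterone receptor in the uterus as well as a glucocorticoid target. It was listed at 56.6, 66.8 and 53.6 FPKM in f/f and 58.3, 43.5 and 67.3 in d/d libraries. The d/d range enclosed the control range on both sides, and the mean difference of -0.08 (SE 0.18) was 0.09 without d/d replicate 2.

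Sgk1 (ENSMUSG00000019970; chr10:21882184-21999903, plus strand) encodes a kinase that acts on sodium channels and other transporters and responds to both adrenal steroid receptors. Sequence upstream of its annotated starts is shown because 1 of its 6 promoter windows holds the complete paired element. Each window, from RefSeq on GRCm38.p6 (the same assembly as mm10), runs from 250 bases before an annotated start to 50 after it. The element searched was the hexamer AGAACA followed after any 3 bases by TGTTCT, which reads the same on both strands, and the hexamers are in capitals.

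Sgk1, chr10:21993656-21993760, plus strand: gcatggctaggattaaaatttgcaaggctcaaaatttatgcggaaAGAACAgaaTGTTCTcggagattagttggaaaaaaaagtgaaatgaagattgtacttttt

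The element occupied chr10:21993701-21993715, and its first base lay 189 bases before the annotated start. Only 3 of 32851 windows of all genes (0.00913%) held it; the other genes with a window of this kind were Acnat2, listed at 0 in all 6 libraries, and Gm35041. No window of Fkbp5, Hsd11b1, Klf9, Mt1, Mt2 or Tsc22d3 held the complete element. A single hexamer on either strand was present in 19.0% of all windows, and among these genes in 1 of the 3 windows of Tsc22d3 and in 3 of the 6 of Sgk1, the window with the complete element included. A match describes letters only, and most known receptor sites lie farther from the start than these windows reach.

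Sgk1 was the member whose groups did not overlap, 1 of 9 beside 10.7% of all genes tested. Its values were 19.2, 22.7 and 23.0 FPKM in f/f and 12.8, 13.7 and 19.1 in d/d libraries. d/d replicates 1 and 2 were well below the controls, and d/d replicate 3 was just under f/f replicate 1. The mean went from 21.6 ± 2.12 to 15.2 ± 3.39 FPKM (SD, n = 3), or 70.2% of control, a log2 change of -0.50 (SE 0.16) that stayed between -0.66 and -0.39 when any 1 library was left out. Its direction was thus opposite to that of Hsd11b1 and Fkbp5. Over the 6 libraries, the Pearson r of log2(FPKM + 1) was 0.84 between Sgk1 and Hsd11b2 and -0.36 between Sgk1 and Hsd11b1. Among all genes tested, Sgk1 reached 0.992 with Prex1.

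Metallothioneins are small cysteine-rich proteins that bind zinc and copper, and their genes answer to metals through the factor Mtf1 as well as to glucocorticoid. Mt1 (ENSMUSG00000031765; chr8:94179082-94180327) and Mt2 (ENSMUSG00000031762; chr8:94172664-94173568) lie on the same strand with 5513 bases between them. The 250 bases before their RefSeq starts are shown because both genes answer to metals. Whether this sequence bears on their values was not tested. Capitals mark the core of the metal response element, TGCACNC or TGCGCNC on either strand.

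Mt2, chr8:94172368-94172617, plus strand: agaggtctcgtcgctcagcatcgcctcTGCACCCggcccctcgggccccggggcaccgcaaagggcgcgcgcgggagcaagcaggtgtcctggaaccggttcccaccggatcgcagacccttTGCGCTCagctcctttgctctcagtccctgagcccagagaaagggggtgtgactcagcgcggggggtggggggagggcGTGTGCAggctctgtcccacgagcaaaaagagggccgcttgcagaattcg

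Mt1, chr8:94178839-94179088, plus strand: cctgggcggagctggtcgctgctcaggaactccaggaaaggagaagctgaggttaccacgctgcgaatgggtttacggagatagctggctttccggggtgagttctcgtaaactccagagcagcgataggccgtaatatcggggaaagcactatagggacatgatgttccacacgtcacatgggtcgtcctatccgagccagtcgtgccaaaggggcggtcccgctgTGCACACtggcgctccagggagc

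With the 50 bases after the start included, the Mt2 window held 4 cores and the Mt1 window 3. These counts hold for the RefSeq starts only, and the GENCODE start of Mt2 lies downstream of the one used. At least 1 core was present in 25.7% of all windows, at least 2 in 7.11% and at least 4 in 0.517%. Hsd11b1 and 1 window of Sgk1 held 1 core each, and Fkbp5, Klf9 and Tsc22d3 held 0. Promoter windows for Hsd11b2 and Zbtb16 were not used here.

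Mt1 had values of 235, 188 and 236 FPKM in f/f and 231, 147 and 329.8 in d/d libraries, and Mt2 had 216, 137 and 171 in f/f and 161, 129 and 229 in d/d libraries. In both genes d/d replicate 3 was the highest and d/d replicate 2 the lowest of the 6. The mean differences were 0.03 (SE 0.28) for Mt1 and -0.03 (SE 0.24) for Mt2 on the log2 scale. That of Mt1 was -0.04 after quantile normalization, -0.01 after upper-quartile scaling, -0.07 without f/f replicate 2 and -0.24 without d/d replicate 3, and those of Mt1 and Mt2 were 0.34 and 0.17 without d/d replicate 2. That of Mt2 was also 0.14 without f/f replicate 1. The 2 genes correlated over the 6 libraries at r = 0.89, and Mt1 with Tsc22d3 at 0.98. The coding sequences of Mt1 and Mt2 were identical at 148 of 186 bases (79.6%), and the longest run shared by their transcripts was 20 bases; how the authors' counting split reads between them is not given in the sources used here. The annotated opposite-strand gene Gm45774 covers 432 of the 588 exon bases of Mt2, and as the strand setting is not given in the sources used here, reads of the 2 could not be separated.

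**Figure D2:**
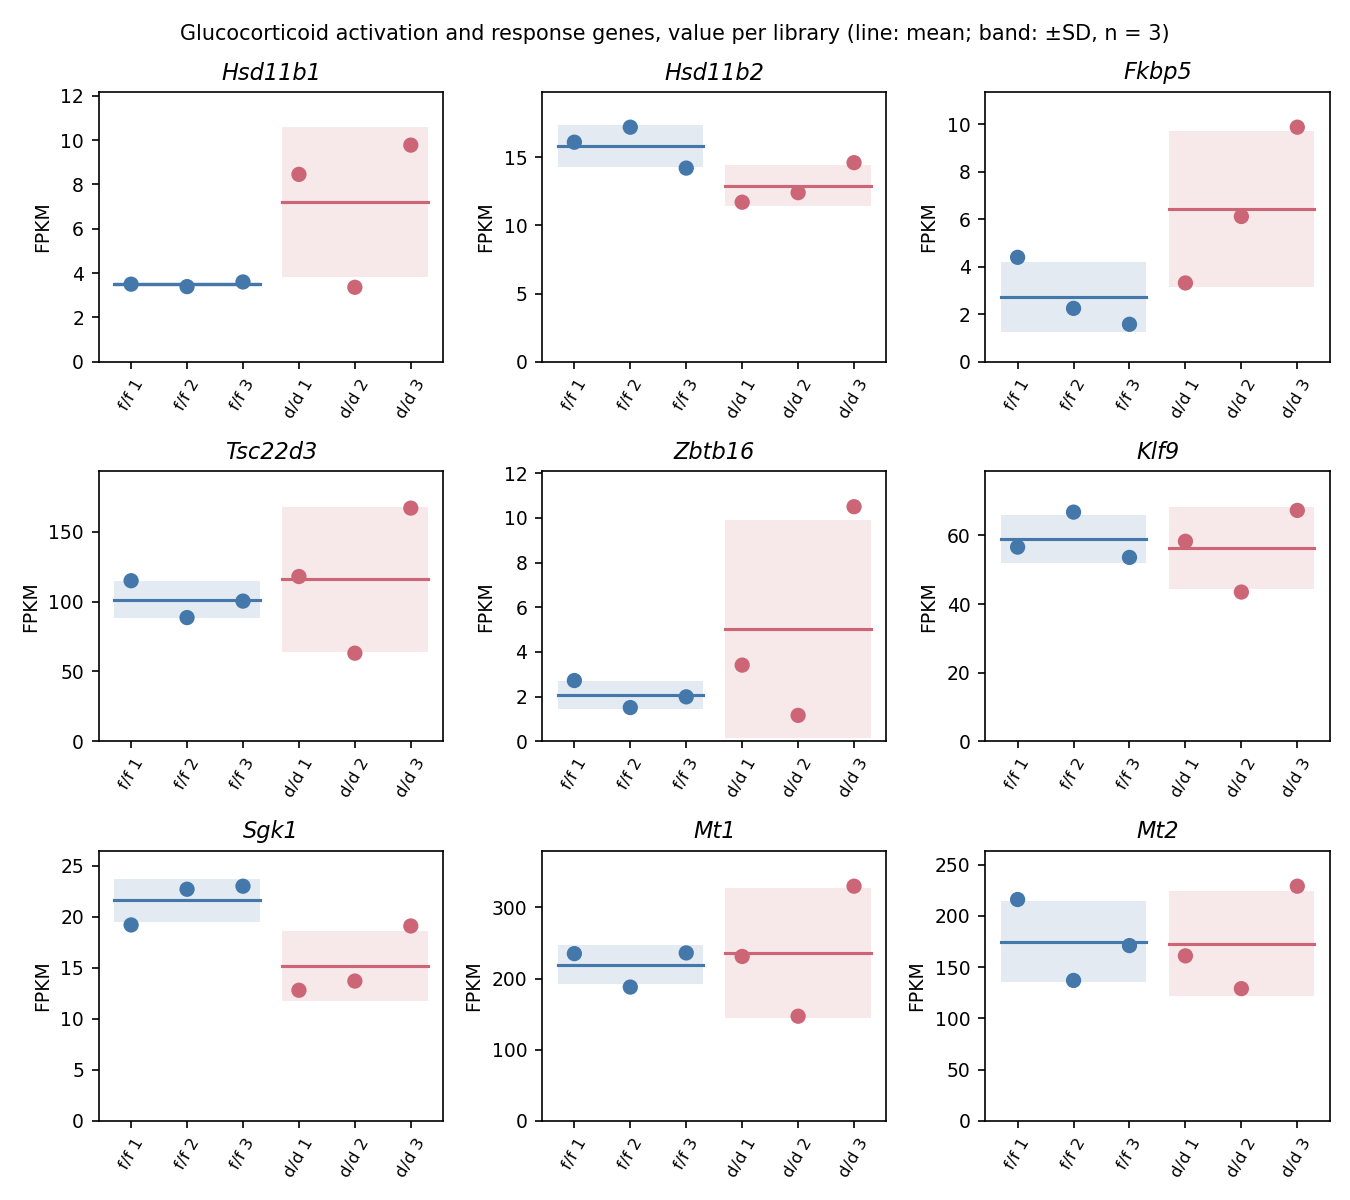
FPKM of each of the 9 genes in the 3 f/f (blue) and 3 d/d (red) libraries, 1 panel per gene with its own axis from 0; lines are group means and bands ±SD (n = 3). d/d replicate 3 is the highest of the 6 libraries for 7 of the 9 genes, and Sgk1 is the one whose groups do not overlap.

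Of the 10 further genes of metal handling, 9 passed the filter, and limma called 0 of them (smallest adjusted p 0.922). None was without overlap, against 10.7% of all genes tested, and their median log2 change was 0.01. Mtf1, the metal sensor, was listed at 4.14, 5.52 and 5.28 FPKM in f/f and 4.27, 4.69 and 5.41 in d/d libraries (log2 change -0.04, SE 0.15). The zinc importer genes Slc39a6 (0.24, SE 0.13) and Slc39a10 (-0.16, SE 0.12) and the zinc exporter family genes Slc30a7 (-0.20, SE 0.13) and Slc30a5 (0.14, SE 0.12) had overlapping groups. When any 1 library was left out, these changes ran in the same order from 0.16 to 0.33, -0.23 to -0.07, -0.30 to -0.11 and 0.05 to 0.22. Mt3 was at 0.878 to 3.49 FPKM and Mt4 was listed at 0 in every library.

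Of a list of 28 other genes known to respond to glucocorticoid, drawn up with earlier results of these data known, 27 passed the filter. limma called 0 of these (smallest adjusted p 0.922), and their median log2 change was 0.07 beside 0.03 for all genes, with 16 positive and 11 negative differences. That median was 0.29 without d/d replicate 2 and -0.13 without d/d replicate 3. The groups did not overlap for 2 of the 27 (7.41%), against 10.7% of all genes. Lcn2, which encodes an iron-binding secreted protein, was at 2.46, 4.51 and 4.78 FPKM in f/f and 17.3, 19.8 and 6.37 in d/d libraries (log2 change 1.55, SE 0.40, limma adjusted p 0.922). It too was called only with array quality weights, as 1 of 316 genes. Anxa1, the gene of an anti-inflammatory annexin, was at 186, 159 and 169.8 in f/f and 216, 253 and 193 FPKM in d/d libraries (0.35, SE 0.13, limma adjusted p 0.922). Both genes were lowest among d/d libraries in replicate 3, unlike most of this list. The kinase gene Map3k6 (0.57, SE 0.24) and the phosphatase gene Dusp1 (0.24, SE 0.15) had the next smallest p-values, and their groups overlapped. Without d/d replicate 3 these changes were 0.32 for Map3k6 and 0.11 for Dusp1.

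**Figure D3:**
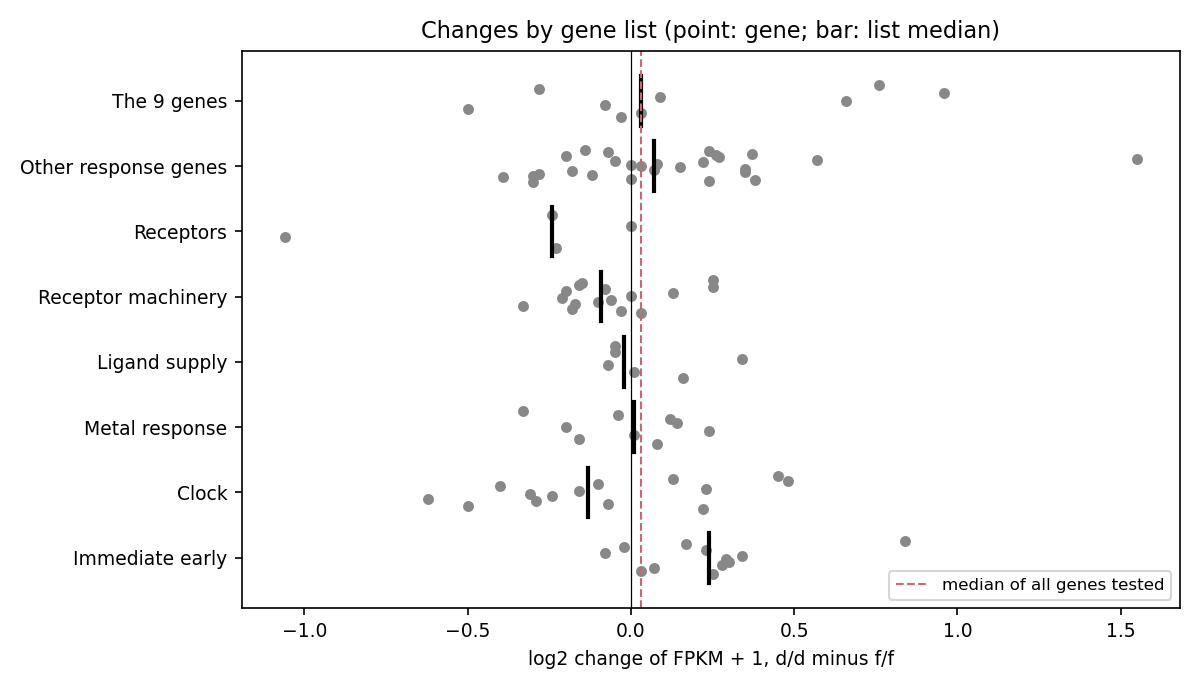
Log2 change of FPKM + 1 (d/d minus f/f) of every tested gene in 8 lists; each grey point is a gene, the black bar the list median and the dashed red line the median of all 12640 genes tested. The 9 genes spread from -0.50 (Sgk1) to 0.96 (Fkbp5) around a median of 0.03, and the single point near -1.06 among the receptors is Pgr.

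The SD of log2(FPKM + 1) was larger among d/d than among f/f libraries for all 9 genes, from 1.12 times for Hsd11b2 to 20.5 times for Hsd11b1. It was larger among d/d libraries for 73.9% of all genes tested. d/d replicate 3 was the highest and d/d replicate 2 the lowest of the 6 libraries for 6 of the 9 genes, namely Hsd11b1, Tsc22d3, Zbtb16, Klf9, Mt1 and Mt2. The same order held for 12.3% of all genes tested. d/d replicate 3 was the highest for 7 of the 9 (22.1% of all genes) and d/d replicate 2 the lowest for 6 (25.7% of all genes). Relative to the control mean, the median of the 9 genes was 0.08, -0.42 and 0.59 log2 units in d/d replicates 1, 2 and 3, and between -0.13 and 0.11 in the controls. The median log2 change of the 9 genes between the genotypes was 0.03, and it was 0.34 without d/d replicate 2 and -0.22 without d/d replicate 3.

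The 27 other response genes were ordered alike. For 19 of them (70.4%) d/d replicate 3 was the highest and d/d replicate 2 the lowest, against 12.3% of all genes, and their median was 0.18, -0.58 and 0.49 in d/d replicates 1, 2 and 3. This order was noticed after the values had been seen, and genes of a library share its depth and composition, so the counts are a description of these libraries. Lists of other function varied. The metal handling genes gave 1 of 9, the receptor machinery 1 of 16 and the clock genes 1 of 14, while the immediate early genes gave 7 of 12 and the epithelial markers 4 of 10. Without d/d replicate 2, groups did not overlap for 15 of the 27 other response genes, all 15 higher in d/d, and for 4 of the 9 genes (Hsd11b1, Tsc22d3 and Zbtb16 higher, Sgk1 lower), against 31.8% of all genes in that comparison. Without d/d replicate 3 the counts were 5 of 27 (2 higher and 3 lower) and 2 of 9 (Hsd11b2 and Sgk1, both lower), against 30.2%.

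Markers of proliferating cells ran the other way over the d/d libraries. Their summed level was 82.0, 39.5 and 55.6 FPKM in f/f and 28.4, 209.6 and 16.7 in d/d replicates 1, 2 and 3. All 8 were detected, 7 passed the filter, and 0 of those 7 had d/d replicate 3 highest. Stromal markers were summed to 4178 to 4853 FPKM in f/f and to 3427, 4976 and 3262 in d/d libraries, and epithelial markers to 880.0 to 966 and to 971, 854 and 1156. The collagen genes carry much of the stromal sum, and 2 of the 9 stromal markers were lowest of the 6 libraries in d/d replicate 2. Of the 10 epithelial markers, 3 (30.0%) were higher in d/d without overlap, among them Cldn7. Of the 7 endothelial markers, 2 (28.6%) were lower without overlap, against 10.7% of all genes in either direction, and limma called 0 of either list (smallest adjusted p 0.922 and 0.806). The part of proliferation and of tissue composition in the values of the 9 genes was not tested.

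**Figure D4:**
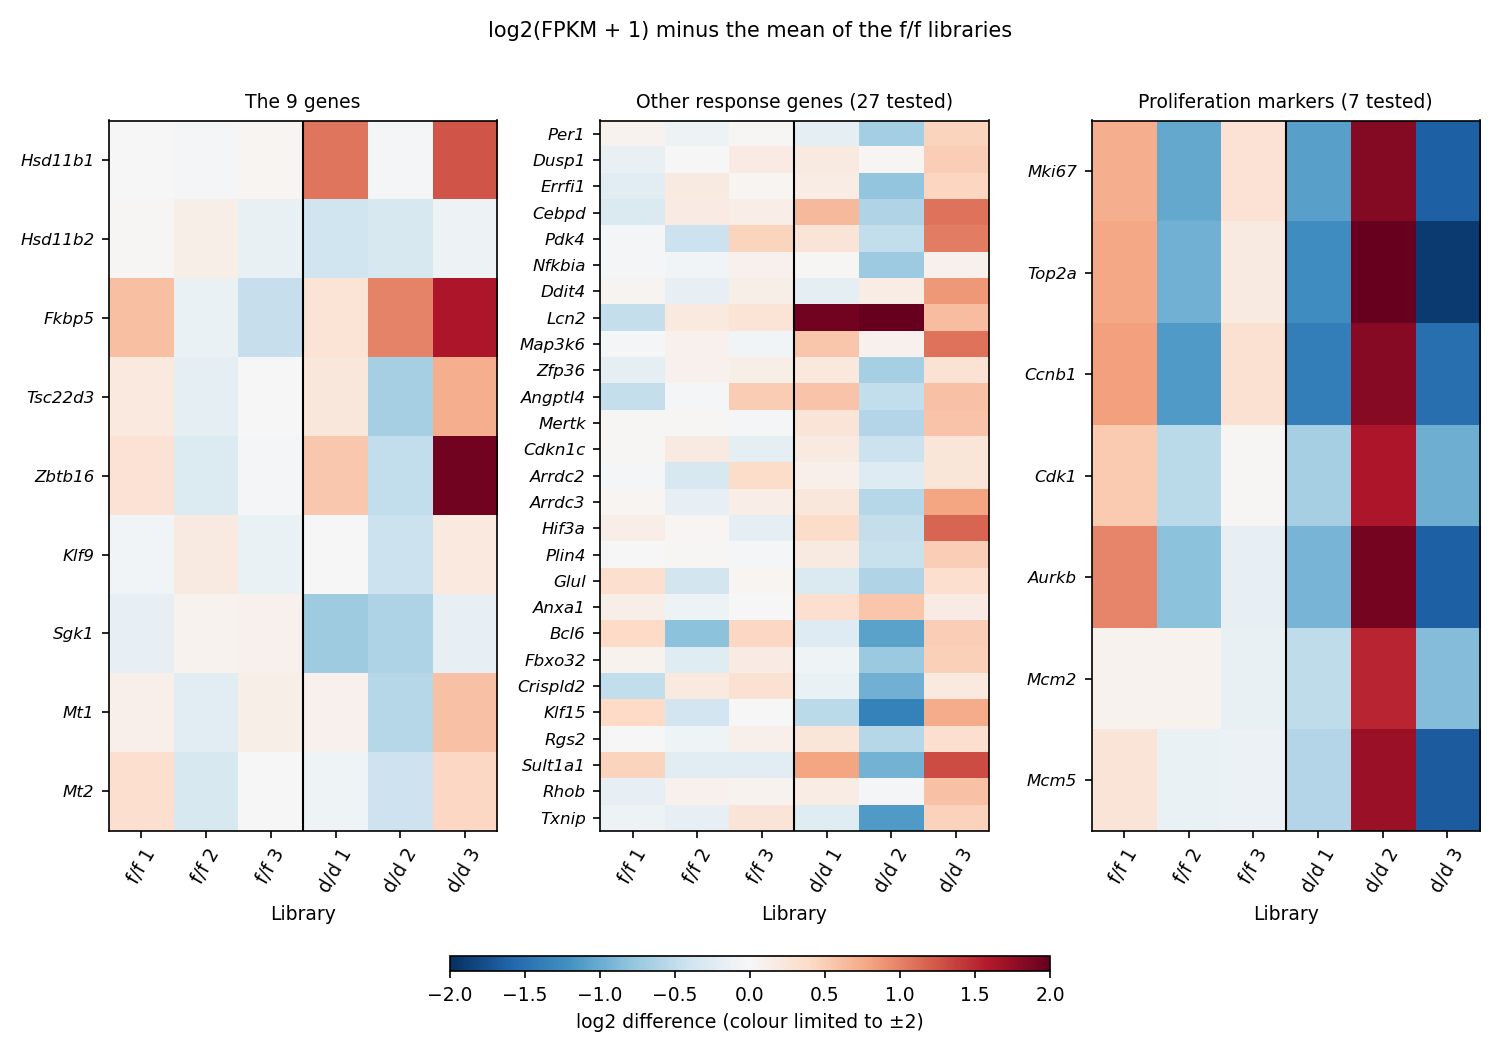
Difference of log2(FPKM + 1) from the mean of the f/f libraries, by gene (rows) and library (columns), for the 9 genes, the 27 tested other response genes and 7 proliferation markers; red is higher and blue lower, with colours limited to ±2. d/d replicate 3 is the highest and d/d replicate 2 the lowest library for 6 of the 9 and 19 of the 27 genes, while d/d replicate 2 is the highest for each of the 7 proliferation markers.

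f/f replicate 1 stood apart from the other controls in other ways. Fat markers summed to 87.2 FPKM in it and to 2.12 and 7.02 in f/f replicates 2 and 3, against 19.3, 9.07 and 2.44 in d/d libraries, with Adipoq at 4.71 in f/f replicate 1 and at 0.614 or less elsewhere. Blood markers summed to 5582, 2629 and 852 in f/f and 709, 1723 and 1111 in d/d libraries. The clock output gene Dbp was at 127, 45.7 and 37.7 FPKM in f/f and 54.1, 30.1 and 36.2 in d/d libraries (log2 change -0.62, SE 0.44), and without f/f replicate 1 the change of Dbp was -0.09. Corticosterone has a daily rhythm, and the clock list as a whole had a median of 0.52 log2 units above the control mean in f/f replicate 1, -0.19 and -0.21 in the other controls and 0.20, -0.75 and 0.16 in d/d replicates 1, 2 and 3. limma called 0 of the 14 tested clock genes (smallest adjusted p 0.922). Clock was the only one of the 14 without overlap (7.14%, against 10.7% of all genes tested). It was at 14.4, 16.4 and 15.1 FPKM in f/f and 16.8, 17.1 and 16.8 in d/d libraries. The changes of Cry1 (0.23, SE 0.14) and Ciart (-0.50, SE 0.32) had overlapping groups. That of Cry1 ran from 0.14 to 0.34 when any 1 library was left out, and that of Ciart was -0.15 without f/f replicate 1. Hsd11b1, which fat cells also express, was at 3.50 FPKM in f/f replicate 1, between the 3.39 and 3.60 of the other controls. Without that library, the log2 changes of Hsd11b1, Sgk1 and Zbtb16 were 0.76, -0.58 and 0.81. The part of fat and of time of day in these values was not tested. Markers of the adrenal gland summed to 1.03 to 2.59 FPKM in the 6 libraries, with Th and Hsd3b6 at 0 in all.

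The genes most like each member over the 6 libraries were sought among all genes tested, by Pearson r of log2(FPKM + 1). With 6 libraries and 12640 genes the best match is always close, so these are given as a description. Hsd11b1 was closest to Camk2b (r = 0.998) and Cirbp (0.996); Cirbp, which encodes a cold-inducible RNA-binding protein, was at 57.0, 58.2 and 56.8 FPKM in f/f and 115, 51.5 and 128 in d/d libraries. It thus shared with Hsd11b1 the narrow controls and the higher level in d/d replicates 1 and 3. The closest genes were Bri3bp and Zbtb20 for Hsd11b2 (0.986 and 0.975), Cdh2 and Inf2 for Fkbp5 (0.997 and 0.994), and Prex1 and Klhl14 for Sgk1 (0.992 and 0.990). Tsc22d3 was closest to Tfcp2 and Cldn8 (0.995 and 0.994), Zbtb16 to Gcnt1 (0.997) and Klf9 to Ddx51 and Zfhx3 (0.993 and 0.991). For Mt1 they were Kcnh6 and Mkrn1 (both 0.996), and for Mt2 Acap2 and Ulk3 (0.996 and 0.990). Between the members themselves, r was above 0 in 31 of 36 pairs with a median of 0.48, beside 50.3% of all pairs of tested genes and a median of 0.01. The 5 negative pairs each included Hsd11b2 or Sgk1.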

How the data were processed

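Every library came as a separate table listing 20637 genes by symbol and Ensembl identifier, with a single expression value. The deposited values were treated as FPKM, a unit inferred from the values and from Cufflinks being named; per the submitters' processing notes HISAT2 2.2.1, Cufflinks 2.2.1 and mm10 were used, with roles not given. Annotation, gene filter and strand setting are not given in the sources used here, and total reads are unknown, so no counting intervals are given. RNA was extracted with TRIzol and made into TruSeq libraries, per the labels.

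Values were analysed as log2(FPKM + 1), which understates changes of low genes. The 12640 genes at 1 or more in at least 3 libraries were fitted in limma 3.58.1, run under R 4.3.3 (eBayes with trend, group as the only term, Benjamini-Hochberg over all genes). P-values are two-sided and measure the spread between these libraries only. The 9 genes, the lists and the alternatives were chosen with earlier results of these data known. Named genes outside the 9 were the receptors, H6pd, Mtf1, Nat10, the 4 genes of each list with the smallest p, and the 2 closest in profile to each member; some genes under this rule are not reported here; Cyp11b1, Cyp11b2, Serpina6, Mt3, Mt4 and marker genes were named after their values were seen. Of the identifiers, 20558 matched GENCODE M21, used for positions and exons, and 79 did not. Motifs were counted in 32851 RefSeq windows. Python 3.11.15, pandas 2.3.3 and biopython 1.88 were used.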

Additional observations from a re-analysis of the deposited data

How the results depend on the processing

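limma called 0 genes as described above and 0 under a pseudocount of 0.1, either other filter, the 3 scalings and no trend. It called 316 with array quality weights, where 3730 had an unadjusted p under 0.05, and between 0 and 12 when 1 library was left out, 12 without d/d replicate 2; unadjusted counts then ranged from 352 to 1726. The 316 included Lcn2 and Pgr. With the replicate number as a block, 0 genes were called and 726 had an unadjusted p under 0.05; same-numbered libraries deviated together at r = -0.34, -0.03 and 0.1, so the numbers were not taken as pairs. Of 15 alternatives, 4 leave a gene's fitted difference as it is (both filters, no trend and the block); over the other 11 the sign of the change did not turn for Hsd11b1 (0.51 to 1.17), Hsd11b2 (-0.37 to -0.21), Fkbp5 (0.35 to 1.30), Zbtb16 (0.03 to 1.24) or Sgk1 (-0.66 to -0.39); it turned for Tsc22d3 in 1, Klf9 in 3, Mt1 in 4 and Mt2 in 3, each within -0.25 to 0.47. Scaling changed the split at an unadjusted p under 0.05 from 339 higher and 291 lower to 259 and 414 (quantile), 248 and 376 (median centring) and 232 and 399 (upper quartile), with the median of all genes going from 0.03 to -0.00, -0.00 and -0.01. Alternatives that need counts were not run.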

Other observations

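Fos, an immediate early gene whose product dimerises with Jun proteins and can interfere with the glucocorticoid receptor, was at 1.80, 3.43 and 3.50 FPKM in f/f and 5.62, 6.01 and 5.86 in d/d libraries, without overlap (log2 change 0.84, SE 0.20, limma adjusted p 0.922). Unlike the glucocorticoid response genes, it was nearly level across the d/d libraries. Of the 12 tested immediate early genes limma called 0 (smallest adjusted p 0.922), with a median log2 change of 0.24. Egr2 was the other one without overlap, at 0.792 to 0.841 FPKM in f/f and 1.01 to 1.56 in d/d libraries. These 2 of 12 (16.7%) stand beside 10.7% of all genes tested. Both were named after their values had been seen.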
